A study of Mus musculus with 3 samples.

Results

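The genes described here are the nuclear-encoded subunits of the respiratory chain and of the ATP synthase. They were chosen by symbol alone, as the genes listed in all 3 libraries whose symbols start with Ndufa, Ndufb, Ndufc, Ndufs or Ndufv and a digit, with Uqcr, Cox4i, Cox5, Cox6, Cox7, Cox8 or Atp5, or are Ndufab1, Sdha, Sdhb, Sdhc or Sdhd. Gm-numbered genes and symbols with -ps were dropped. The rule gave 86 genes with 85 symbols, out of 22238 genes common to the libraries. Of these, 38 belong by name to complex I, 4 to complex II, 8 to complex III, 18 to complex IV and 18 to complex V.

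RNA-Seq was done on 3 populations of female C57BL/6J mice, 10 to 12 weeks old, in which experimental autoimmune encephalomyelitis (EAE), a model of multiple sclerosis, was induced with a MOG peptide in complete Freund's adjuvant and 250 ng of pertussis toxin at 2 and 24 h. At days 14 to 15, bone marrow (BM) monocytes were sorted as CD45+ CD11b+ Ly6C-high Ly6G- CD11c- cells, spinal cord (SC) monocytes as CD45+ CD11b+ CD64+ Ly6C-high Ly6G- cells, and SC monocyte-derived antigen-presenting cells (APCs) as CD45+ CD11b+ CD64+ Ly6C-low or negative Ly6G- cells. All mice were immunized wild-type animals, so no library shows these cells without disease. Each population is 1 pooled library, from 13 mice in 2 experiments for BM monocytes and from 18 mice in 3 experiments for each SC population, and no difference between populations has a replicate check.

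The respiratory chain passes electrons from NADH (complex I) and succinate (complex II) through complex III and cytochrome c to oxygen at complex IV, and complexes I, III and IV pump protons across the inner mitochondrial membrane. Complex V, the ATP synthase, uses the proton gradient to make ATP. Most subunits are encoded in the nucleus and imported, and a small core of complexes I, III, IV and V is encoded by mitochondrial DNA, so each of these enzymes is built from both genomes. In macrophages the use of this chain is known to change with activation.

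The libraries held 33280643, 27283795 and 28209589 estimated reads in BM monocytes, SC monocytes and APCs. The monocyte tables hold 54432 genes while that of the APCs holds 22242, which means that the latter was made on another transcript set. The intervals below hold counting error alone, since PCR copies of a molecule were not told apart. In sum, markers followed the sort. The 5 APC markers summed to 631 TPM (read number per length and depth, rescaled over the common genes) in BM monocytes, 4698 in SC monocytes and 11206 in APCs. The 8 monocyte markers summed to 11135, 9631 and 3948 TPM. Single monocyte markers differed: Ly6c2 had 5205, 3602 and 1067 TPM, but Csf1r rose (374, 676 and 1134 TPM) and Fcgr1 was highest in SC monocytes (81.3, 274 and 138 TPM). One label gives bone marrow as the source of the APC sample, against its title and tissue label. In such bulk libraries, fewer cells of a type and less RNA per cell cannot be told apart. Summed markers of neutrophils (8 genes) were 1237, 183 and 407 TPM, and those of microglia (6 genes) 12.9, 90.5 and 245 TPM. Among neutrophil markers Mmp8 had 707, 119 and 137 TPM, while Retnlg rose (1.77, 16.7 and 57.9 TPM) and Ly6g stayed low (2.57, 1.71 and 1.64 TPM). Summed markers of T cells (6 genes) were 0.436, 51.5 and 72.6 TPM. Those of erythroid cells (4 genes) were 0.318, 69.4 and 22.9 TPM, and of endothelial cells (5 genes) 11.3, 49.9 and 31.3 TPM. Their part in the values below was not tested.

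Most subunits were abundant in every population. Of the 86 genes, 80 exceeded 3 TPM in at least 1 library, and their median level was 195 TPM in BM monocytes, 140 TPM in SC monocytes and 133 TPM in APCs. The 6 genes that did not were Cox7b2, Cox8b, Cox8c, Ndufa4l2, Atp5s and a second identifier of Atp5o with 0 reads in every library. Levels in TPM, which are per length, were in the order BM monocytes over SC monocytes over APCs for 46 of the 80 genes (57.5%), and for 35.9% of all 10307 genes over 3 TPM in at least 1 library. TPM of APCs rests on other effective lengths, which were over 1.5 times those of SC monocytes for 3 of the 80 genes (Ndufa5, Uqcrq and Cox7c, named after their values were seen). The next most frequent order, BM monocytes over APCs over SC monocytes, held for 13 genes. The most abundant genes by mean TPM were Atp5l, a membrane subunit of the ATP synthase, at 921, 826 and 517 TPM in BM monocytes, SC monocytes and APCs, and Cox8a, a small subunit of complex IV, at 502, 691 and 754 TPM. These 2 lay on opposite orders of the 3 libraries. Summed over a complex, the SC monocyte level as a percent of the BM monocyte level was 70.8% for complex I, 70.9% for complex II, 93.6% for complex III, 96.1% for complex IV and 79.5% for complex V. The summed TPM of all 86 genes was 20376 in BM monocytes, 16794 in SC monocytes and 14054 in APCs. TPM of a library add to 1 total, so such a sum is a share, and mitochondrially encoded subunits summed to 48794, 59402 and 130292 TPM. On TPM with a pseudocount of 1, the median log2 fold change of SC against BM monocytes was -0.37 over all genes tested and -0.36 over the subunits. For APCs against BM monocytes these medians were -0.46 and -0.62.

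**Figure D1:**
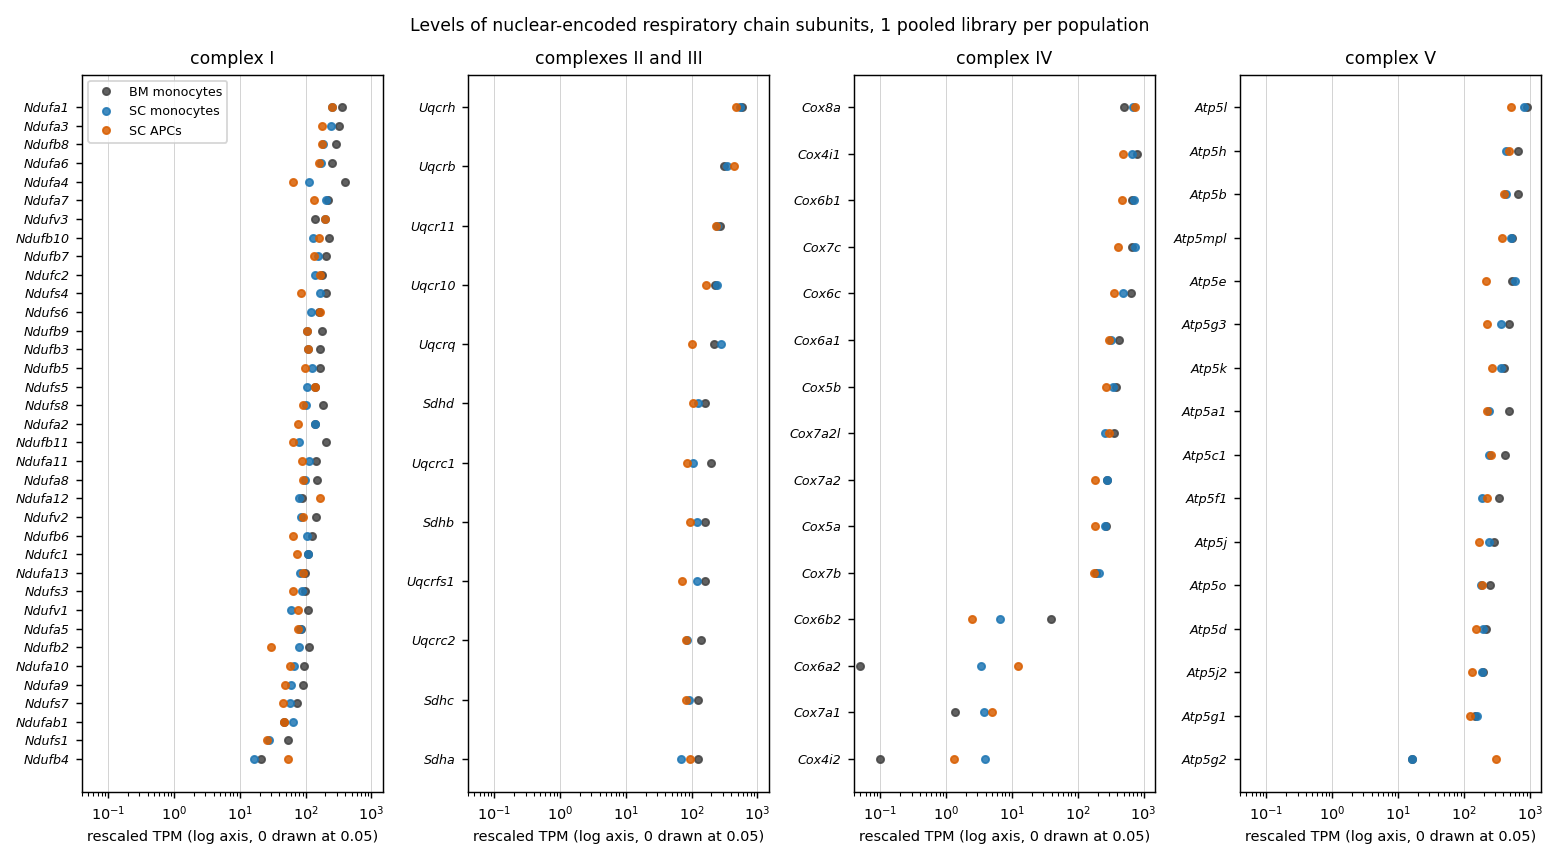
Rescaled TPM (log axis, values of 0 drawn at the left edge) of 79 of the 80 genes over 3 TPM in at least 1 library, in BM monocytes (grey), SC monocytes (blue) and APCs (orange), by complex, with 1 pooled library per population and no error bars. Most points of a gene lie close together, and Ndufa4, Cox6b2, Cox6a2, Cox4i2 and Atp5g2 are spread furthest.

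The first comparison asked how the subunits of monocytes in the inflamed spinal cord differ from those in the bone marrow. The median log2 fold change of reads was -0.06 over the 80 genes tested and -0.15 over all 10072 genes tested, a difference of 0.09. Of the 80, 45 lay below 0 (56.25%) and 35 above, where 57.7% of all genes tested lay below 0. A gene was called where the 98% interval of its ratio lay beyond a 2-fold change, or beyond 1.5-fold as a second rule. By the 2-fold rule 2 subunits were lower (Ndufa4 and Cox6b2) and 2 higher (Cox4i2 and Cox6a2), where 10.7% of all genes tested were lower and 13.8% higher. Genes over 3 TPM in either library were tested. Cox4i2 (0.0992 TPM in BM and 3.96 TPM in SC monocytes) and Cox6a2 (0 and 3.39 TPM) were so in SC monocytes alone. These 2 could therefore be called higher only. By the 1.5-fold rule 6 subunits were lower and 3 higher, where 20.4% of all genes tested were lower and 18.5% higher.

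The set's zero depends on the scaling. Scaling by total reads moved the median of all genes from -0.15 to -0.33 and that of the subunits to -0.24, and division by effective length moved them to -0.37 and -0.36. Against the median of all genes, the subunits stayed between 0.01 and 0.09 higher under these scalings and under TMM factors, but they were at -0.26 against it with no filter on TPM. Subunits with effective lengths of 500 bases or more were at -0.15 against all genes of every length. All genes of at least 500 bases had a median of -0.16. By complex and against the median of all genes, complex IV lay 0.44 higher, complex III 0.31 higher and complex V 0.22 higher, while complex I lay between -0.05 and 0.00 and complex II between -0.04 and 0.03 over the scalings tried. The differences of the other 3 complexes over these scalings were 0.37 to 0.44 for complex IV, 0.25 to 0.31 for complex III and 0.17 to 0.22 for complex V. Complex IV had 12 genes over 3 TPM in BM monocytes and 15 in SC monocytes. Its genes Cox4i2, Cox6a2 and Cox7a1 were tested only through their level in SC monocytes, which can only raise its median. With no filter on TPM the median of all genes was 0.20. The medians of complexes III and V, at most 0.17 and 0.08 over the alternatives, then lay below it. The raw medians of complexes III and V, 0.16 and 0.08, turned to -0.02 and -0.11 with total reads, so the sign of these medians depends on the scaling. Total reads and TMM factors shift all genes alike. They could therefore not change the order of the complexes or their distance from the median of all genes. Division by effective length could, and complexes IV, III and V kept their order under it.

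**Figure D2:**
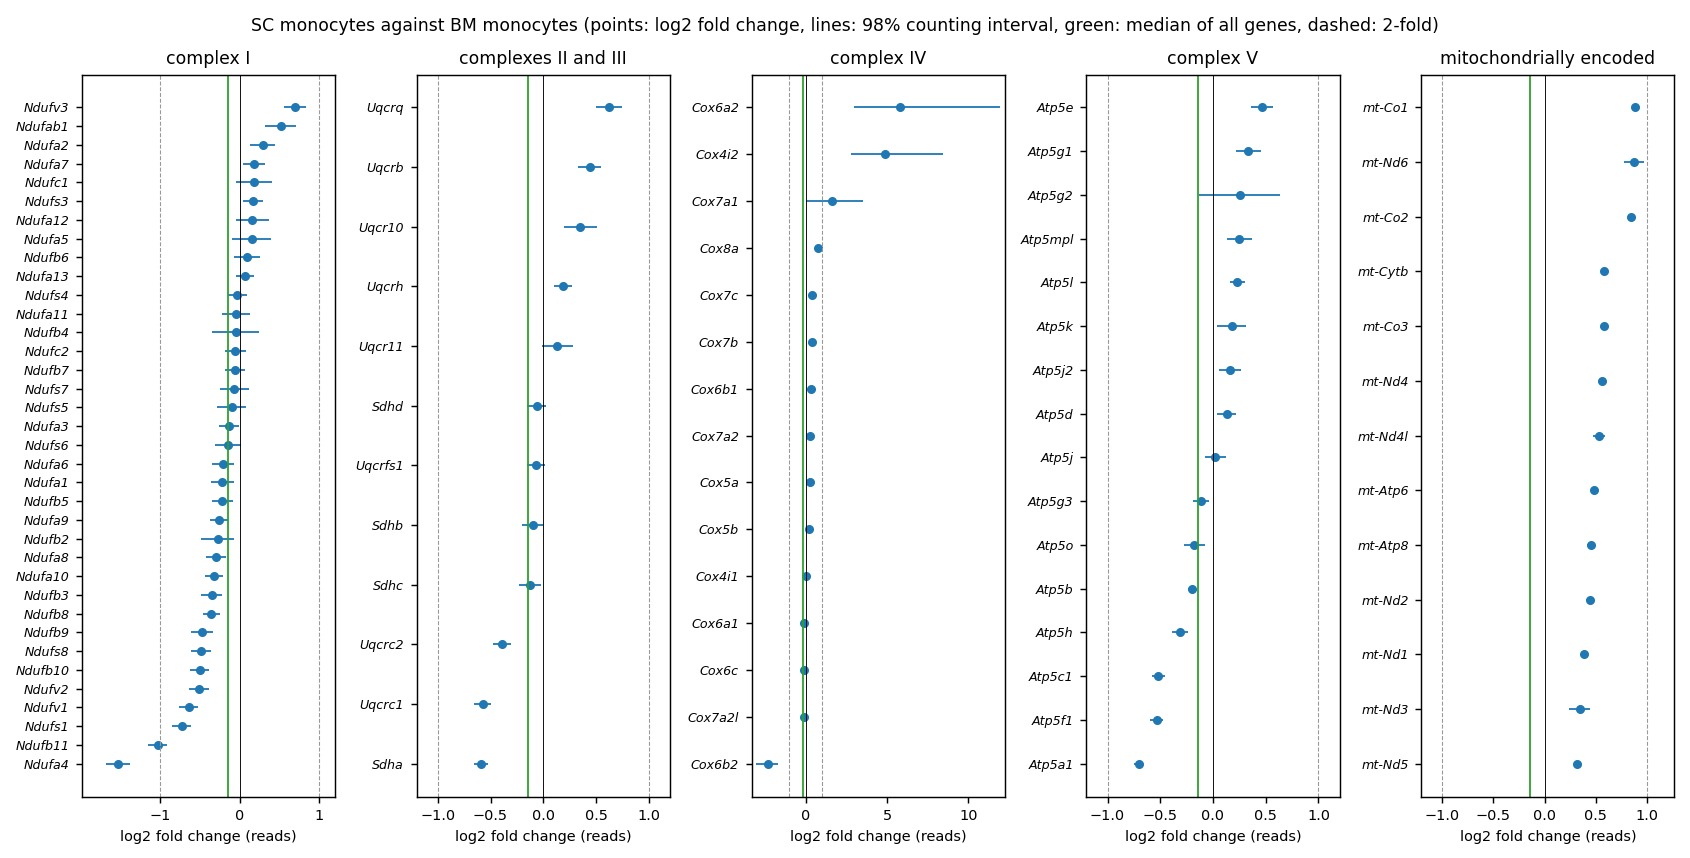
Log2 fold change of reads, SC monocytes against BM monocytes, for 79 of the 80 subunits by complex and for the 13 mitochondrially encoded subunits (points, with 98% counting intervals as lines), with the median of all genes (green, -0.15) and the 2-fold lines (dashed). Ndufa4 and Cox6b2 lie beyond 2-fold lower with their whole interval, and all 13 mitochondrially encoded subunits lie above 0, although mt-Nd5 falls to -0.01 when reads are divided by effective length.

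Transcript length went with the fold changes. Across the 80 subunits, the log2 fold change and the log2 effective length had a Spearman correlation of -0.47 and a Pearson correlation of -0.21, given as a description, since the genes share both libraries. The 43 tested subunits with an effective length under 500 bases in every library had a median of 0.15, and the 27 with at least 500 bases a median of -0.29. All genes tested showed the same order, with medians of 0.19 for mean effective lengths under 250 bases, 0.11 from 250 to 500, -0.02 from 500 to 1000, -0.10 from 1000 to 2000 and -0.23 from 2000 bases on. In the same classes the medians of the subunits were 0.21, 0.03, -0.08, -0.32 and -0.71, from 10, 38, 20, 9 and 3 genes, so that within 4 of the 5 classes they lay below all genes, although over all lengths they lay 0.09 above. The 84 cytosolic ribosomal proteins tested, also short and abundant mRNAs, had a median 0.25 above that of all genes, and 0.19 above it at the least over the scalings tried. Whether length, degradation or the content of the cells accounts for these values was not tested.

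**Figure D3:**
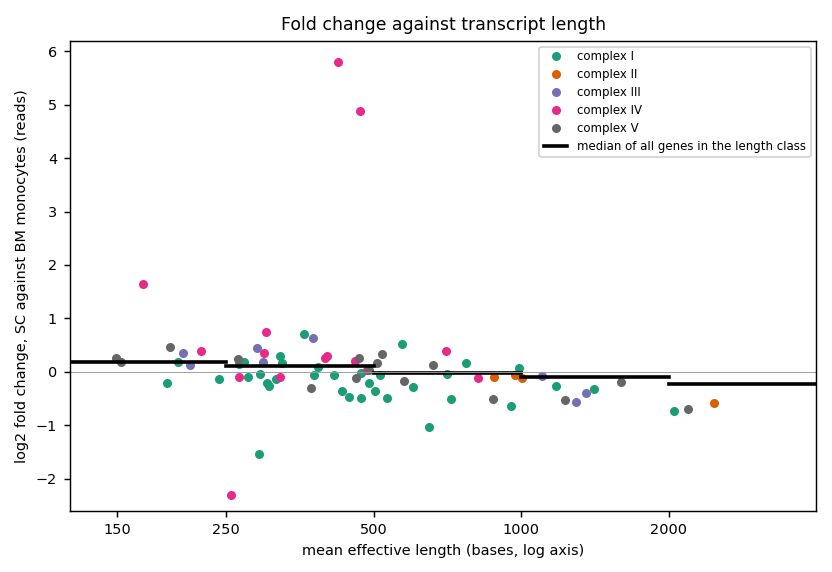
Log2 fold change of reads, SC monocytes against BM monocytes, of 79 of the 80 subunits (points, coloured by complex) against their mean effective length in bases (log axis), with the median of all genes in each length class (black bars). Subunits of at least 500 bases have a median of -0.29 and those under 500 bases 0.15, and the 2 points near 5 and 6 are Cox4i2 and Cox6a2, which have 1 and 0 reads in BM monocytes.

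In complex I, 27 of 37 tested subunits (73.0%) lay below 0 and 10 above, where 57.7% of all genes tested lay below 0. By the 1.5-fold rule 4 (10.8%) were lower and 0 higher, where 20.4% of all genes tested were lower and 18.5% higher. Ndufa4 stood furthest out. It is a small subunit first assigned to complex I, as its name says, and later to cytochrome c oxidase. Its level was 404 TPM (95% Wilson interval 388 to 420) in BM monocytes, 111 TPM (103 to 120) in SC monocytes and 63.9 TPM (57.9 to 70.6) in APCs, from 2537, 627 and 390 reads. The 3 intervals do not overlap, and the log2 fold change of SC against BM monocytes was -1.53 (98% interval -1.68 to -1.39), 2.89-fold lower. Over the alternatives tried it ranged from -1.86 to -1.53. With a coefficient of variation of 0.2 assumed between samples, which is no measured spread, its interval widened to -2.51 to -0.56 and it passed neither rule.

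Ndufa4 has a paralog, AA467197 (also known as Nmes1), whose protein is known to take the place of NDUFA4 in cytochrome c oxidase of inflammatory macrophages. AA467197 went the other way, with 1.84 TPM in BM monocytes, 2284 TPM in SC monocytes and 1584 TPM in APCs, from 21, 22431 and 17686 reads. Its log2 fold change of SC against BM monocytes was 10.50 (9.83 to 11.28). In BM monocytes Ndufa4 was the more abundant per length, and in both SC populations AA467197 was. A further paralog, Ndufa4l2, had 0, 19 and 34 reads and stayed under 3 TPM, which against a floor of 3 reads is at least 8.85-fold higher in SC than in BM monocytes. The coding sequences of Ndufa4 and AA467197 are given to show how far apart they are for read assignment, with the longest run of bases they share in capitals (GENCODE M21, transcript strand, 5′ to 3′).
Ndufa4: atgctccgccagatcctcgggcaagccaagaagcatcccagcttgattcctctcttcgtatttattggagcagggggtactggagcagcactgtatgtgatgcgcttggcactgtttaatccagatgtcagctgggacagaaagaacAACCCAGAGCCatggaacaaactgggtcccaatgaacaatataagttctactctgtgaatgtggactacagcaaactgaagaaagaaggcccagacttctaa
AA467197: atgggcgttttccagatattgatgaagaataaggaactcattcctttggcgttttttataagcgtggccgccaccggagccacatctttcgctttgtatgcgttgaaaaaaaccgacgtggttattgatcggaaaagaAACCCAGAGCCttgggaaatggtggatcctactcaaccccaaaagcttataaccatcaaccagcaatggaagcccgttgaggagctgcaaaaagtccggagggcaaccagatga
They are 249 and 252 bases long and identical at 124 of 240 aligned bases (51.7%), and the longest shared run of 11 bases is shorter than the 50-base reads. Ndufa4 and Ndufa4l2 are identical at 66.9% of 245 aligned bases. Ndufa4 lies on chromosome 6 from 11900292 to 11907497 on the minus strand (GRCm38).

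**Figure D4:**
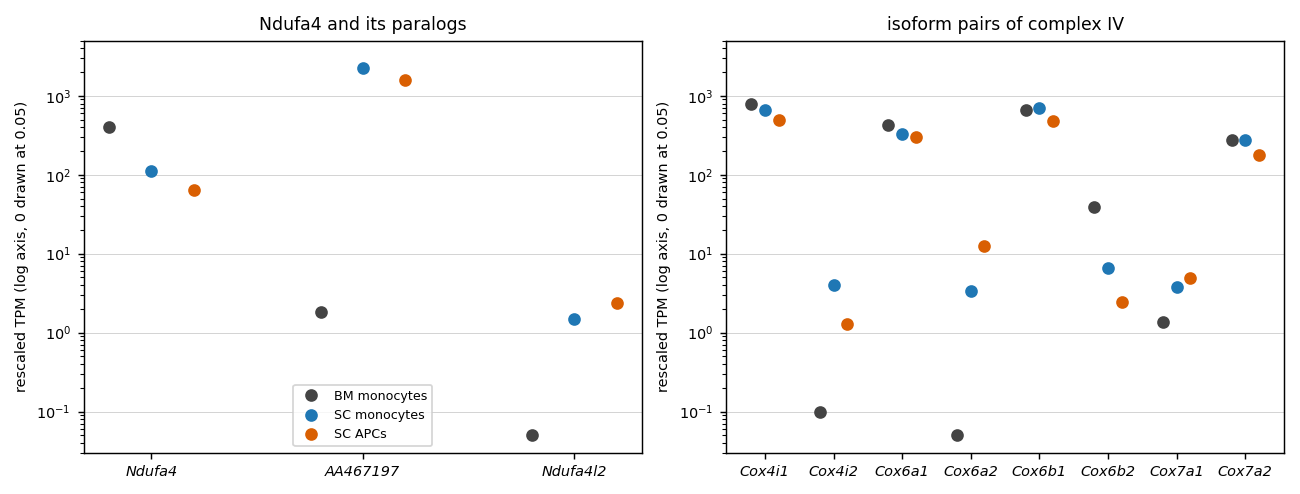
Rescaled TPM (log axis, values of 0 drawn at the bottom) of Ndufa4 and its paralogs (left) and of isoform pairs of complex IV (right) in BM monocytes (grey), SC monocytes (blue) and APCs (orange), 1 library each. Ndufa4 goes from 404 to 63.9 TPM while AA467197 goes from 1.84 to 2284 and 1584 TPM. Cox4i2, Cox6a2, Cox6b2 and Cox7a1 stay far under Cox4i1, Cox6a1, Cox6b1 and Cox7a2.

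Of the other subunits of complex I lower past 1.5-fold, 2 are described here. Ndufb11, an X-linked accessory subunit of the membrane arm, had 202, 80.2 and 64.0 TPM in BM monocytes, SC monocytes and APCs, with a log2 fold change of SC against BM monocytes of -1.03 (-1.16 to -0.91). Ndufs1, a core subunit of the electron-carrying arm singled out after its values were seen, had a log2 fold change of -0.73 (-0.85 to -0.61). The abundant accessory subunits Ndufa1, Ndufa3, Ndufa6 and Ndufb8 lay between -0.36 and -0.13, near the median of all genes. The highest was Ndufv3, an accessory subunit of the NADH-binding module named here after its values were seen, at 0.70 (0.56 to 0.84), which did not pass the 1.5-fold rule.

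Complex II, or succinate dehydrogenase, has no mitochondrially encoded subunit and is also an enzyme of the TCA cycle. Sdha, its flavoprotein, had 126, 68.1 and 94.9 TPM in BM monocytes, SC monocytes and APCs, the iron-sulfur subunit Sdhb 158, 119 and 93.9 TPM, and the membrane anchors Sdhc and Sdhd 123, 92.1 and 82.7 TPM and 160, 124 and 106 TPM. All 4 lay below 0 in SC against BM monocytes, with log2 fold changes of -0.59 for Sdha and -0.12 to -0.06 for the other 3, and 0 passed the 1.5-fold rule.

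In complex III, the bc1 complex, 0 of 8 subunits passed the 1.5-fold rule in SC against BM monocytes. The most abundant was Uqcrh, the hinge protein, at 581, 546 and 468 TPM in BM monocytes, SC monocytes and APCs, with a log2 fold change of 0.19 (a value that turned to -0.09 when reads were divided by effective length and to -0.06 with all genes of the monocyte values). Uqcrb, Uqcr10 and Uqcr11, small subunits, had log2 fold changes of 0.44, 0.35 and 0.13. The large core proteins lay below 0, with -0.58 for Uqcrc1 and -0.39 for Uqcrc2, both named after their values were seen.

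In complex IV, cytochrome c oxidase, the 3 subunits past 2-fold in SC against BM monocytes were all alternative isoforms. Of these, Cox4i2 and Cox6a2 were tested only through their level in SC monocytes. Cox6b2, known as the testis isoform of Cox6b1, had 38.9 TPM (33.9 to 44.8) in BM monocytes, 6.64 TPM (4.59 to 9.59) in SC monocytes and 2.45 TPM (1.51 to 3.98) in APCs, from 198, 28 and 16 reads. Its log2 fold change of SC against BM monocytes was -2.31 (-3.02 to -1.68), and its share of the summed TPM of both isoforms went from 5.55% to 0.924% and 0.513%. Cox6b1 itself had 663, 711 and 475 TPM.

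Cox6a2, known from heart and skeletal muscle, had 0, 27 and 114 reads, with 3.39 TPM in SC monocytes and 12.6 TPM in APCs. Against a floor of 3 reads it was at least 12.6-fold higher in SC monocytes and at least 47.6-fold higher in APCs than in BM monocytes. Beside Cox6a1, the common isoform, at 425, 325 and 303 TPM, it made up 0%, 1.03% and 3.997% of the pair. The 3 muscle markers Acta1, Ckm and Myh4 summed to 0.462, 0.456 and 0.0974 TPM, with Myh4 at 0 reads in every library and Acta1 at 0 in APCs. Of the marker sums given above, those of APCs, microglia and T cells rose in the same order as Cox6a2. Those of monocytes, neutrophils, erythroid and endothelial cells did not. The part of any of these cells in the Cox6a2 reads was not tested. Cox4i2, the alternative isoform of Cox4i1 known from lung and low oxygen, had 1, 35 and 13 reads, and its log2 fold change of SC against BM monocytes was 4.89 (2.81 to 8.42). The erythroid and endothelial sums given above were also highest in SC monocytes, and their part in the Cox4i2 reads was not tested. Neither Cox6a2 nor Cox4i2 passed 2-fold on length-divided values with a pseudocount of 1, where their log2 fold changes were 2.13 and 2.17.

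The families of Cox4i1, Cox7b and Cox8a kept 1 main member. In that of Cox7a1, Cox7a2 and Cox7a2l the lead changed. Cox7a2 made up 43.6%, 51.1% and 37.1% of its summed TPM in BM monocytes, SC monocytes and APCs, and Cox7a2l 56.2%, 48.2% and 61.9%. Cox4i1 had 786, 662 and 493 TPM and at least 99.4% of its pair in every library. Cox7a1, the muscle isoform, had 5, 12 and 18 reads, against 276, 280 and 181 TPM for Cox7a2 and 355, 263 and 301 TPM for Cox7a2l. Cox7b had 193, 214 and 178 TPM, while Cox7b2 and Cox8c had 0 reads in every library and Cox8b 1 read in SC monocytes. Of the main isoforms only Cox8a passed 1.5-fold, higher in SC than in BM monocytes at 0.74 (0.66 to 0.82), and it no longer passed with total reads, where it was 0.56, or with reads divided by effective length, where it was 0.46. Cox7c, at 666, 741 and 404 TPM, had a log2 fold change of 0.39 in the same comparison. Its lower TPM in APCs goes with a longer effective length there, 305 bases against 188 and 174 in BM and SC monocytes, and its reads were 2669, 2503 and 2567. Cox6b1 likewise had effective lengths of 271, 255 and 371 bases, and a log2 fold change of reads of -0.09 in APCs against SC monocytes.

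In complex V, 9 of 16 tested subunits lay above 0 and 7 below (43.75%) in SC against BM monocytes, where 57.7% of all genes tested lay below. Atp5a1 alone was lower past 1.5-fold (6.25%), where 20.4% of all genes tested were. In the catalytic head, the alpha subunit Atp5a1 had a log2 fold change of -0.71 (-0.75 to -0.66), the beta subunit Atp5b -0.20 and the gamma subunit Atp5c1 -0.52, while the small delta and epsilon subunits Atp5d and Atp5e had 0.13 and 0.46. Atp5a1, Atp5c1 and Atp5d were named after their values were seen. In reads, Atp5a1 went from 22848 in BM monocytes to 10035 in SC monocytes, against 21909 and 13688 for Atp5b. In the membrane part, Atp5l and Atp5mpl had 0.23 and 0.25, which turned to -0.16 and -0.03 with reads divided by effective length (Atp5l also to -0.02 with all genes of the monocyte values), and Atp5h of the stalk had -0.31.

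The second comparison set SC APCs against SC monocytes, the step of differentiation in the tissue. It used the same SC monocyte library as the first, so the values of the comparisons are not independent. The median log2 fold change was -0.13 over the 80 subunits tested and -0.04 over all 9734 genes tested. Of the subunits, 53 lay below 0 (66.25%) and 27 above, where 53.5% of all genes tested lay below 0. By the 2-fold rule 1 was lower (Atp5e) and 3 higher (Atp5g2, Ndufb4 and Cox6a2), where 1.7% of all genes tested were lower and 1.93% higher. By the 1.5-fold rule 5 were lower and 4 higher, where 5.77% of all genes tested were lower and 4.28% higher. The medians of complexes I to V were -0.07, -0.18, -0.19, -0.11 and -0.29.

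Atp5g2 and Ndufb4, 2 of the 3 subunits higher past 2-fold, have copies that hold reads in the monocytes and are not listed for APCs, and neither passed 1.5-fold once the reads of the copies were added. Atp5g2, one of 3 genes for the c subunit of the membrane ring, had 165 reads in BM monocytes, 141 in SC monocytes and 3055 in APCs. The processed pseudogene Gm10175, on chromosome 7 from 23946646 to 23947290, had 3003 and 2436 reads in the monocytes and is not listed for APCs. Summed, the counts were 3168, 2577 and 3055. The log2 fold change of APCs against SC monocytes was 4.27 (3.99 to 4.57) for Atp5g2 alone and 0.09 (98% interval from just under 0 to 0.18) for the sum. Ndufb4, an accessory subunit of complex I, had 320, 221 and 812 reads, and its copy Ndufb4c, on chromosome 15 from 73809507 to 73809896, 714 and 409 reads in the monocytes. With the copy, 1.72 (1.47 to 1.98) became 0.21 (0.03 to 0.39). The coding sequences of both pairs are identical, over 441 and 390 bases (GENCODE M21), and their first 60 bases are shown because a read from this stretch fits either gene of a pair.
Atp5g2: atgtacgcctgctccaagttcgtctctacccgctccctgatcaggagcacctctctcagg
Gm10175: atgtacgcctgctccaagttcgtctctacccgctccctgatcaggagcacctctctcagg
Ndufb4: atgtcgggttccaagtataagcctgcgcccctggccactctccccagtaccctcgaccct
Ndufb4c: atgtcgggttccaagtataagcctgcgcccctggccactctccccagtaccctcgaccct
With the reads of such copies added, 1 subunit, Cox6a2, stayed higher past 2-fold and 2, Cox6a2 and Ndufa12, past 1.5-fold.

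The 3 genes of the c subunit changed direction as a family when the copy was counted. As deposited, Atp5g2 made up 2.55% and 2.98% of their summed TPM in BM and SC monocytes and 46.3% in APCs, beside 150, 159 and 123 TPM for Atp5g1 and 485, 364 and 229 TPM for Atp5g3. Their summed reads had a log2 ratio of APCs to SC monocytes of 0.31, and -0.28 with the reads of Gm10175 added. In all, 32 of the 85 symbols have a gene that shares at least 15% of its coding 31-base words with another gene. Of these, 4 have such a gene, listed for the monocytes only, with at least 10 reads. For Ndufab1 and Cox7c, the other 2, adding them moved the log2 fold change of APCs against SC monocytes from 0.05 to -0.17 and from -0.12 to -0.18.

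**Figure D5:**
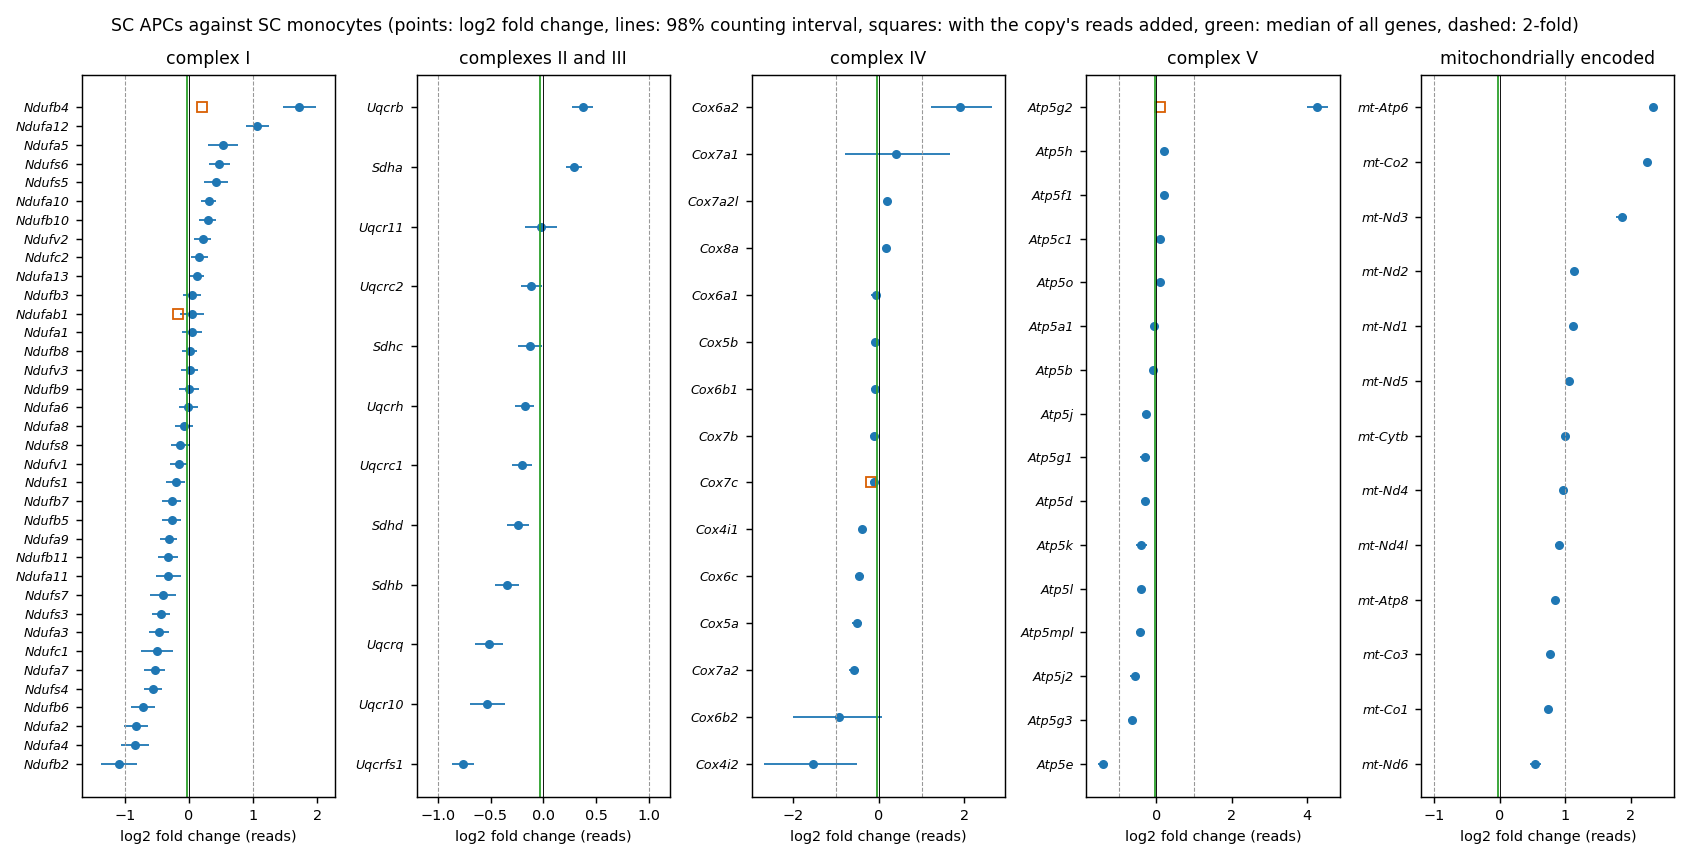
Log2 fold change of reads, SC APCs against SC monocytes, for 79 of the 80 subunits by complex and for the 13 mitochondrially encoded subunits (points, with 98% counting intervals), with open squares for the 4 subunits whose copy's reads were added. With its copy Atp5g2 moves from 4.27 to 0.09 and Ndufb4 from 1.72 to 0.21, near the median of all genes (green, -0.04).

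Few subunits without such a copy stood apart in APCs. Atp5e, the epsilon subunit of the ATP synthase head, had 537 TPM (515 to 560) in BM monocytes, 609 TPM (584 to 635) in SC monocytes and 220 TPM (206 to 235) in APCs, from 2220, 2192 and 906 reads, and its log2 fold change of APCs against SC monocytes was -1.43 (-1.56 to -1.30). Ndufb2, of the complex I membrane arm, had 714, 422 and 221 reads and a log2 fold change of -1.09 (-1.37 to -0.81). Ndufa12, an accessory subunit of complex I, had 612, 490 and 1145 reads and a log2 fold change of 1.07 (0.89 to 1.25), and Gm15920, the near-identical gene found for it, had 0 and 2 reads in the monocytes. Ndufa4 was lower again at -0.84 (-1.06 to -0.63), while AA467197 had -0.50. Cox6a2 was higher, at 1.89 (1.22 to 2.64), and Cox4i2, from 35 to 13 reads, had a value of -1.54 whose interval of -2.68 to -0.52 passed neither rule. The remaining 2 past 1.5-fold lower, Ndufa2 at -0.83 and the Rieske iron-sulfur protein Uqcrfs1 of complex III at -0.76, were named after their values were seen. Sdha was the 1 gene of complex II above 0, at 0.29, against -0.34 to -0.13 for the other 3.

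APCs set against BM monocytes span both steps and share a library with each comparison above. The median was -0.29 over the 79 subunits tested and -0.17 over all 10190 genes tested. By the 2-fold rule 4 subunits were lower (Ndufa4, Ndufb11, Ndufb2 and Cox6b2) and 4 higher (Ndufa12, Ndufb4, Cox6a2 and Atp5g2), where 11.8% of all genes tested were lower and 14% higher. Between these libraries, Cox6a2 was over 3 TPM in APCs alone, so it could be called higher only. Cox6b2 was over 3 TPM in BM monocytes alone (38.9 TPM, against 2.45 TPM in APCs), so it could be called lower only. By the 1.5-fold rule 12 were lower and 6 higher, where 22.2% of all genes tested were lower and 18.7% higher. Ndufa4 had the log2 fold change of -2.37 (-2.56 to -2.19), from 2537 to 390 reads. Ndufb4, at 1.67 alone, was at -0.02 with the reads of its copy added.

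The subunits encoded by mitochondrial DNA, which join the nuclear ones in complexes I, III, IV and V, were higher as a group in each step. All 13 lay above 0 in SC against BM monocytes, with a median log2 fold change of 0.53, except that mt-Nd5 was at -0.01 when reads were divided by effective length. Their share of the reads of the common genes was 1.91%, 2.70% and 5.76% in BM monocytes, SC monocytes and APCs, while that of the 86 nuclear-encoded genes was 0.736%, 0.582% and 0.561%. In APCs against SC monocytes all 13 again lay above 0 under every scaling tried, with a median of 0.99, and 12 passed 1.5-fold and 6 passed 2-fold, where 4.28% and 1.93% of all genes tested were higher by these rules. Nuclear copies touch these genes too: 9 copies listed for the monocytes only held 137864 reads in BM monocytes and 155838 in SC monocytes. With them added, the log2 ratio of the summed reads of APCs to SC monocytes was 0.76 in place of 1.05, and that of SC to BM monocytes stayed at 0.68. For the 7 genes with no such copy holding reads, among them mt-Cytb and mt-Nd1, the values in APCs against SC monocytes ran from 0.54 to 1.14, with 6 past 1.5-fold and 3 past 2-fold. The part of RNA quality and of the transcript set in these values was not tested.

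Genes that build or serve the chain were described beside it, from lists written with earlier results known. The shares called in these lists are to be read against the 20.4% of all genes tested that were lower and the 18.5% that were higher past 1.5-fold in SC against BM monocytes. Of the 21 assembly factors of complex IV, 2 were lower and 2 higher, or 9.52% each way, fewer than among all genes. Cox17, a copper chaperone, was higher at 1.28, from 765 to 1327 reads, and Taco1, an activator of mt-Co1 translation, lower at -1.72, from 353 to 76 reads. The other 2, named after their values were seen, were the copper chaperone Sco2 at 1.33 and Surf1 at -0.92. Of the 15 assembly factors of complex I tested, 3 were lower past 1.5-fold, or 20% and near the share of all genes, and 0 higher, led by the methyltransferase Ndufaf7 at -2.23, from 1304 to 199 reads, with Tmem126b at -1.07 and Tmem186 at -1.06, which were named after their values were seen. Of the 5 factors of complex III tested, Ttc19 was higher at 1.34 and Bcs1l, which inserts the Rieske protein and was named after its value was seen, lower at -0.96. The 3 tested factors of complex II and the 3 of complex V had 0 calls by either rule, with medians of 0.55 and -0.48. In APCs against SC monocytes 1 of these assembly factors passed 2-fold, Pet117 of complex IV, at 1.76 from 27 to 104 reads. Of the 9 electron carriers and exchangers, led by the adenine nucleotide translocase Slc25a5 (802, 596 and 424 TPM) and the phosphate carrier Slc25a3 (337, 362 and 213 TPM), 1 was lower past 1.5-fold in SC against BM monocytes and 0 higher. It was Etfb, a subunit of the electron transfer flavoprotein, at -0.86, named after its value was seen.

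Of 12 transcription and biogenesis genes tested, 3 were lower and 3 higher past 1.5-fold in SC against BM monocytes, or 25% each way, where 20.4% and 18.5% of all genes tested were. The coactivator Ppargc1b was higher, from 76 to 430 reads at 2.97, and its relative Pprc1 at 1.18, while Tfam, which packages mitochondrial DNA, was lower at -1.10 from 1057 to 352 reads. The other 3, named after their values were seen, were Esrra at 0.82, Tfb2m at -0.87 and Gabpa at -0.76. The paper, which used a 2-fold rule for differential expression, instead describes Esrra as similar in both monocyte populations and lower after differentiation. Ppargc1a had 0, 6 and 9 reads. The 78 mitochondrial ribosomal proteins had a median of -0.14, that of all genes to within 0.01 on the log2 scale. In APCs against SC monocytes, 1 of the 12 transcription and biogenesis genes (8.33%) was lower past 1.5-fold and 0 higher. Of all genes tested there, 5.77% were lower and 4.28% higher.

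Promoter sequences, which the choice by symbol did not use, were searched for 5 motifs, and each of them was absent from most of the subunits' promoters. Of the 86 genes, 67 matched a promoter of 300 bases, 250 before the start and 50 after it (RefSeq, GRCm38.p6). The motif of NRF1, a known regulator of respiratory genes, stood on either strand in the promoters of 17 of them (25.4%), against 5.19% of all 27025 genes with a promoter and 7.48% of the 16462 common ones. AAGATGGC (YY1) was found for 13.4% of these subunits, 3.19% of all genes and 3.65% of the common ones, and AAGGTCA (ERR) for 11.9%, 5.38% and 4.63%. CCGGAAGT (ETS) was found for 7.46%, 4.31% and 5.95%, and GGGCGG (SP1) for 40.3%, 38.2% and 51.1%. All were searched on both strands. By complex, the NRF1 motif stood in 7 of 33 promoters of complex I, 2 of 3 of complex II, 1 of 5 of complex III, 1 of 13 of complex IV and 6 of 13 of complex V. Examples of the promoters that hold it are shown with the NRF1 motif in capitals.
Ndufa8 (30 bases before the start, chr2:36049349-36049378, minus strand): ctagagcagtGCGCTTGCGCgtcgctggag
Ndufs6 (16 bases before the start, chr13:73328479-73328508, minus strand): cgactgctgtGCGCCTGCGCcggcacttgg
Cox6a1 (162 bases before the start, chr5:115349101-115349130, minus strand): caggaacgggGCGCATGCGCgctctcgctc
Atp5g2 (42 bases before the start, chr15:102671070-102671099, minus strand): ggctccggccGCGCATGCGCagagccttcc
Nrf1 itself had 1679, 817 and 639 reads in BM monocytes, SC monocytes and APCs, with a log2 fold change of -0.56 in SC against BM monocytes. A match of letters is not a measured binding site.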

How the data were processed

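The authors sequenced 1 KAPA mRNA library per population as 50-base paired reads and estimated expression with Salmon 0.14.1 on GENCODE vM22 (mm10), pooling transcripts by gene. They deposited estimated counts, TPM and effective lengths per gene. The methods do not say why the APC table holds fewer genes. The TPM deposited by the authors are normalized for effective length and depth. The deposited estimated counts carry no normalization and were rounded here to whole reads. Over the 22238 common genes, TPM values of each library were rescaled to 1 total. Symbols and sequences came from GENCODE M21 (GRCm38), with the same version for all 86 identifiers.

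The log2 ratio of 2 libraries was the median of a gamma posterior, with 1 read added and size factors from median ratios, with its percentiles 1 and 99 as the 98% interval, after the definition of GFold, which the study used. Genes with more than 3 rescaled TPM in either library of a comparison were tested. Levels have 95% Wilson intervals, and the floor was 3 reads. No test of the conditions was possible with 1 library each. The genes named are those past 2-fold, the 4 most abundant of each complex, all of complex II, the 3 largest changes in each direction of each comparison, Ndufa4 with its paralogs, the isoform families, and of the other lists those past 2-fold and the most abundant. One gene that the rule chose is counted but not reported here by name or drawn. Members and lists were chosen with earlier results of these data known. Alternatives tried are named in the closing section. Near-identical genes were found by shared coding 31-base words. The scripts ran on biopython 1.88, scipy 1.17.1, matplotlib 3.10.9, numpy 2.4.6 and pandas 2.3.3 under Python 3.11.15, and edgeR 4.0.16 in R 4.3.3 gave the TMM factors.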

Additional observations from a re-analysis of the deposited data

Results flagged for a closer look

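Some signal lay in genes that the comparisons did not use because they are listed for the monocytes and not for APCs. Near-identical to Atp5g2, Gm10175 held 3003 reads in BM monocytes and 2436 in SC monocytes. Near-identical to Ndufb4, Ndufb4c held 714 and 409 reads. Near-identical to Cox7c, Gm12338 held 109 and 107 reads. Near-identical to Ndufab1, Gm4459 held 110 and 95 reads. Ndufb1-ps, dropped by its symbol, held 2441 reads in BM monocytes and 1758 in SC monocytes. Each population has 1 library, so no sample was set against others of its group.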

How the results depend on the processing

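With 1 pooled library per population, the intervals hold counting error alone and leaving out a library leaves no value. No paired analysis was possible because each group has 1 library. Of the values compared with an alternative, 1053 kept their size and direction, 280 moved and 31 changed direction. The cause of a change was not tested where the alternative's own construction does not show it.

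Values are given in the order SC against BM monocytes, APCs against SC monocytes, APCs against BM monocytes. With total reads as the scaling, the median of SC against BM monocytes was -0.24 with 11 subunits lower past 1.5-fold, complexes III and V turned to -0.023 and -0.11, and in APCs against BM monocytes the median was -0.43, while complex IV turned to -0.045 and Cox7a2l to -0.071. With reads divided by effective length and a pseudocount of 1, the median of the first comparison was -0.36, with 16 lower and 0 higher past 1.5-fold and 0 higher past 2-fold, complexes III and V turned to -0.12 and -0.20, and Atp5mpl, Atp5l and Uqcrh to -0.030, -0.16 and -0.089. In the second, 3 were lower past 2-fold and 8 past 1.5-fold. In the third, the median was -0.62, 9 were lower past 2-fold and 29 past 1.5-fold, and complex IV, Cox7c, Cox7a2l, Cox7b and Cox6b1 turned to -0.48, -0.72, -0.24, -0.12 and -0.48. A pseudocount of 0.1 gave a median of -0.37 and 16 lower past 1.5-fold in the first, and otherwise these same values (3 and 8 in the second, -0.62, 9 and 29 in the third), except that in the first Cox4i2 and Cox6a2 stayed higher past both folds while Cox8a no longer passed. With size factors over all genes of the monocyte values, the median was -0.31, with 14 lower and 1 higher past 1.5-fold and 1 higher past 2-fold, and complexes III and V, Atp5l and Uqcrh turned to -0.086, -0.17, -0.016 and -0.058.

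With no filter on TPM, the median against that of all genes turned to -0.26 in the first comparison and was -0.45 in the third, as the all-gene median moves with the genes tested. With only the subunits of effective length 500 bases or more, the median of the first was -0.29, or -0.15 against all genes of every length. With a coefficient of variation of 0.2 assumed, 1 subunit was lower past 2-fold and 1 past 1.5-fold in the first. In the second, 0 were lower past 2-fold and 0 past 1.5-fold, and 1 was higher past 2-fold. In the third, 2 were lower and 2 higher past 2-fold, and 2 lower and 3 higher past 1.5-fold. With the reads of near-identical genes added, or without the 4 subunits that have such a gene, 1 was higher past 2-fold and 2 past 1.5-fold in the second and 2 past 2-fold in the third, and with them added Ndufb4 turned to -0.023 in the third. The last 2 alternatives were chosen after seeing the data.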
